A study of Mus musculus with 20 samples.

Results

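Matrix proteases and their inhibitors were taken as every gene whose symbol begins with Adamts, Mmp or Timp followed by a number. The rule used symbols and no measured value. It found 46 of the 21705 genes in the file, which were 19 Adamts, 23 Mmp and 4 Timp genes. Of these 46 members, 34 reached a normalized value of 10 in at least 5 of the 20 libraries, namely 16 Adamts, 14 Mmp and all 4 Timp genes, and 22 were at 10 or more in all 20 libraries.

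Matrix metalloproteinases (Mmp) are zinc enzymes that are secreted or held on the cell surface and cut collagens, gelatins, proteoglycans and other matrix proteins. Most are made as inactive precursors and become active when a propeptide is removed. The Adamts enzymes are secreted relatives that carry thrombospondin repeats; some trim procollagens, some cut proteoglycans such as versican and aggrecan, and Adamts13 cuts von Willebrand factor. Tissue inhibitors of metalloproteinases (Timp) bind the active site of Mmp enzymes. In the heart, fibroblasts are a main source of many of these enzymes and inhibitors. The balance between enzymes and inhibitors bears on how the collagen network is built and cleared.

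Poly(A) RNA was sequenced from heart ventricles of male C57Bl/J6 mice in 4 groups of 5 libraries. They were Acsl1H-/- mice with vehicle, littermate Acsl1flox/flox controls with vehicle, Acsl1H-/- mice with rapamycin and Acsl1flox/flox controls with rapamycin. Acsl1 encodes an enzyme that joins long-chain fatty acids to coenzyme A before they are burned, and rapamycin inhibits the kinase mTOR. Mice of both genotypes received tamoxifen, given i.p. at 75 mg/kg on 4 days from an age of 6 to 8 weeks, so no group was free of it. Rapamycin at 1 mg/kg or its vehicle was injected daily for 2 weeks, and hearts were removed 2 weeks after tamoxifen. The sources used here name neither the Cre line nor its promoter, and an effect of Cre itself cannot be told apart from loss of Acsl1.

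Acsl1 values, which are normalized values here and below unless stated, were 740 to 1682 in knockout vehicle hearts and 6373 to 13431 in control vehicle hearts. Under rapamycin they were 631 to 1950 in knockout hearts and 10518 to 16661 in control hearts. The libraries held an implied 11.5 to 21.1 M reads, and a value of 1.12 to 2.32 corresponded to 1 read. Control vehicle libraries 1 and 3 stood apart: the log2 level of long transcripts relative to short ones was -1.05 and -1.17 in them, against -0.43 to 0.56 in the other 18 libraries. The members are long, with a median transcript length of 4206 bases against 2932 over all tested genes, and 17 of the 34 tested members had their lowest value of all 20 libraries in control vehicle 1 or 3, as did 37.1% of all 13548 tested genes. Values for the members and lists are given with all libraries. Some of those under vehicle are also given without these 2, and a value given only once may have moved too. Of the markers of the labelled tissue, 6 cardiomyocyte genes summed to 1377726 to 1711222 in every library, while the summed value of 6 atrial and conduction markers ran from 5111 to 63499 in knockout vehicle, 2527 to 6585 in control vehicle, 8967 to 59426 in knockout rapamycin and 2790 to 35876 in control rapamycin hearts. In knockout against control hearts under vehicle, all 6 atrial and conduction markers had a log2 change above 0. Their median was 3.16, against 0.07 for all genes, and 3.37 without control vehicle 1 and 3. Among these markers, Myl7 was at 7352, 1802, 3.98, 9549 and 1538 in knockout vehicle hearts. In control vehicle hearts it was at 35.7, 7.85, 27.8, 356 and 17.4.

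The 12 members below the filter were near or at 0. Adamts16, Adamts18, Mmp1a, Mmp1b, Mmp7 and Mmp20 were listed at 0 in all 20 libraries. Mmp10, Mmp21, Mmp24, Mmp25, Mmp27 and Adamts20 had a highest value of 1.14 to 10.2. Nearest the threshold, Mmp8, Adamts19 and Adamts4 reached 10 in 7, 9 and 10 libraries, whereas Mmp25 did so in 2 and the others in 0. With the threshold at 5 or at 20, 36 or 30 members passed.

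Per kb of transcript, the scale on which genes can be compared with each other, the inhibitors dominated. Timp3, an inhibitor that binds to the matrix, averaged 2067 per kb over the 20 libraries, Timp2 1084, Timp4, an inhibitor prominent in the adult heart, 320 and Timp1 114. Mmp15, a membrane-bound metalloproteinase, was the highest enzyme at 773 per kb, ahead of Mmp2 (gelatinase A) at 512. Adamts1, which cuts versican, was the highest Adamts at 184 per kb. Mmp14, the membrane-bound activator of Mmp2, averaged 85.8 per kb, Adamts13 76.7, Adamts2, which removes the amino-terminal propeptide of fibrillar procollagens, 74.2 and Mmp3 (stromelysin 1) 70.2. The ranges of neighbours in this order overlapped over libraries. Summed per kb, the 4 Timp genes were at 3784 ± 591 in knockout vehicle hearts and 3323 ± 755 in control vehicle hearts, and at 3838 ± 466 in knockout rapamycin hearts and 3399 ± 954 in control rapamycin hearts (SD, n = 5 each). The Mmp sum was 1880 ± 495, 1602 ± 145, 1873 ± 308 and 1701 ± 174 in these groups, and the Adamts sum 701 ± 118, 508 ± 168, 655 ± 162 and 665 ± 84.7. The inhibitor sum was thus above the Mmp sum and the Adamts sum in each group's mean. These sums compare RNA levels and do not measure inhibition.

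**Figure D1:**
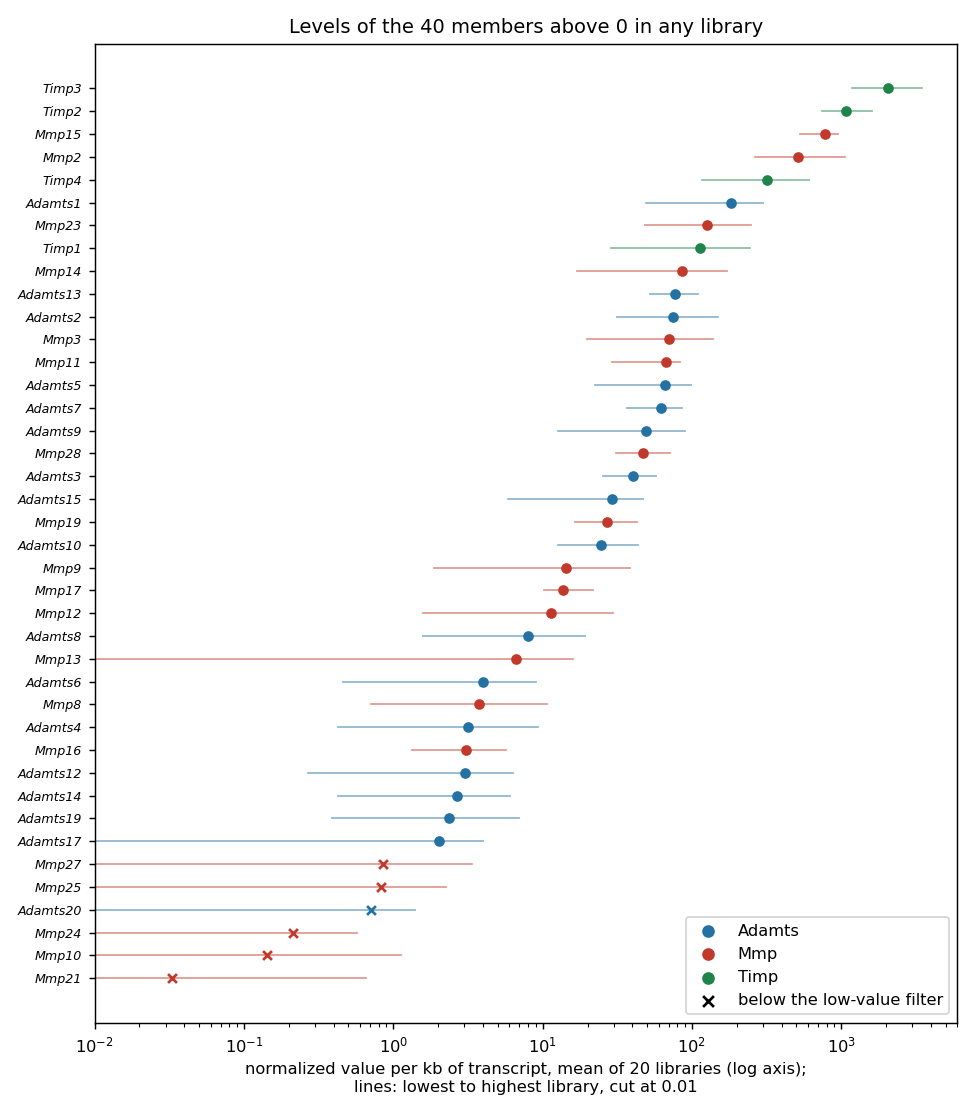
Mean normalized value per kb of transcript over 20 libraries (log axis) for the 40 members above 0 in any library, with lines from the lowest to the highest library. Timp3 (2067) and Timp2 (1084) lead, and crosses mark members below the filter on low values.

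Many of the enzymes with low levels lie side by side in the genome. This grouping was noticed after the values were seen. In the RefSeq gene table of GRCm38.p6, 10 Mmp genes follow each other on chromosome 9 with no other protein-coding gene between them: Mmp13, Mmp12, Mmp1b, Mmp3, Mmp1a, Mmp10, Mmp8, Mmp27, Mmp20 and Mmp7. They include collagenases (Mmp13, Mmp8 and the mouse Mmp1 pair), stromelysins (Mmp3, Mmp10), macrophage elastase (Mmp12), matrilysin (Mmp7) and the tooth enamel protease enamelysin (Mmp20). Their mean values ran from 0 to 126 with a median of 0.835, and 4 of 10 passed the filter. The other 36 members ran from 0 to 9762 with a median of 100, and 30 of them passed. These means are not scaled for transcript length. Per kb, the run reached at most 70.2, for Mmp3, and the other members 2067, for Timp3. Mmp3 was the highest of the run, with 214, 182, 35.8, 140 and 237 in knockout vehicle hearts and 118, 49.0, 46.4, 80.5 and 104 in control vehicle hearts. Under rapamycin it was at 120, 115, 218, 92.8 and 250 in knockout hearts and at 135, 62.9, 117, 77.5 and 133 in control hearts. Knockout libraries held the highest values of Mmp3 under both injections, knockout vehicle 3 held the lowest of all libraries, and the groups overlapped. The log2 change of Mmp3 in knockout hearts was 0.86 under vehicle (SE 0.43, limma adjusted p = 0.169). Averaged over injections it was 0.71 (SE 0.30, limma adjusted p = 0.248).

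RefSeq promoter sequences of GRCm38.p6, from 250 bases before to 50 after the annotated start, were found for 32 of the 46 members, including all 10 of the run. The letters TGAGTCA or TGACTCA, the classical site of AP-1 factors on either strand, occurred in 7 of the 12 promoters that the table gives for these 10 genes. TATAAA, on either strand, occurred in 9 of the 12. Of the 23 promoters of the other 22 members in the table, 0 held the first and 2 (Adamts1 and Mmp21) the second. Over all 32851 promoters of the table the shares were 5.20% and 13.6%, and 0.941% held both. CG dinucleotides numbered 0 to 7 in the promoters of the run (median 1), 2 to 44 in those of the other members (median 20) and had a median of 7 over all promoters. The genes of the run are related copies, so their promoters are not independent, and a match of letters is a description of this window only. The windows below show 3 promoters of the run, of which Mmp3 is its most abundant gene, Mmp13 a low collagenase and Mmp10 a gene at or near 0, followed by Timp2, among the most abundant members, and Adamts13, the member that passed the test below. Capitals mark the AP-1 and TATA letters, and the last pair has neither. The positions are Mmp3 at chr9:7445572-7445871 (plus strand), Mmp13 at chr9:7272264-7272563 (plus), Mmp10 at chr9:7502092-7502391 (plus), Timp2 at chr11:118355362-118355661 (minus) and Adamts13 at chr2:26973166-26973465 (plus).
Mmp3: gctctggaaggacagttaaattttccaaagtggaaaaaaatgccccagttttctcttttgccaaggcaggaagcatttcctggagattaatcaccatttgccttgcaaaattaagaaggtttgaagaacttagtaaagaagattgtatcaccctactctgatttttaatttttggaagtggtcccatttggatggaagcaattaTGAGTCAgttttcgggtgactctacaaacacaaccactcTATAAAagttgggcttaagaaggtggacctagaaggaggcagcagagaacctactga
Mmp13: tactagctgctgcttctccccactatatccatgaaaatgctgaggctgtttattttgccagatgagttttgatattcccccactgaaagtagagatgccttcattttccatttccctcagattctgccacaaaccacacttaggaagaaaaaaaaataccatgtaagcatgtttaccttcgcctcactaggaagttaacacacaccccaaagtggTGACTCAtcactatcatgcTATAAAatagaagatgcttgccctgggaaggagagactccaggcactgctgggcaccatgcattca
Mmp10: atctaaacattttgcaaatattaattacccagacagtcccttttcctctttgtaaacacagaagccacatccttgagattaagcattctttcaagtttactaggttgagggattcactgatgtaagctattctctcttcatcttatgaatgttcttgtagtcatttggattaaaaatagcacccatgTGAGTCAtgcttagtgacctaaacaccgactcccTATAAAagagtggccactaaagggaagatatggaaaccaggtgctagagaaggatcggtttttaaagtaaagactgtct
Timp2: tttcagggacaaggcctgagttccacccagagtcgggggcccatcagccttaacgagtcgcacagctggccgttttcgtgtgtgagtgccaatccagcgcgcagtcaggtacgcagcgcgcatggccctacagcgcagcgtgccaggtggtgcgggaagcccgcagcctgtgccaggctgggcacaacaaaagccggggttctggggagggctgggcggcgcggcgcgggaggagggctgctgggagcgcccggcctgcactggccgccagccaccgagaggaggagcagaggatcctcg
Adamts13: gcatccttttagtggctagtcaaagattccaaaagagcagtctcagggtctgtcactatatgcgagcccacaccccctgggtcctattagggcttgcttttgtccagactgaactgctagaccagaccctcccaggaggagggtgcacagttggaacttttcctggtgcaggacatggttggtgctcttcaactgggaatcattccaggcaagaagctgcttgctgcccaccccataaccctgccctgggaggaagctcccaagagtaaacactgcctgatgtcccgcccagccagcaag
In Mmp3 the AP-1 letters began 46 bases before the annotated start and the TATA letters 7 before it, in Mmp13 35 and 16 before it, and in Mmp10 63 and 29 before it. In these 3 windows the TATA letters followed the AP-1 letters. The Timp2 window held 25 CG dinucleotides and the Adamts13 window 2.

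Adamts13 (Entrez 279028) was the only member called by limma in any of the 7 contrasts. Its protein is the protease that cuts von Willebrand factor into smaller multimers. In knockout vehicle hearts its values were 249, 302, 213, 222 and 208, against 364, 328, 350, 355 and 306 in control vehicle hearts. In knockout rapamycin hearts they were 238, 220, 268, 409 and 226, against 357, 335, 348, 435 and 391 in control rapamycin hearts. Under vehicle every knockout library was below every control library, and under rapamycin 4 of 5 knockout libraries were below all controls, the exception being knockout rapamycin 4 at 409. The means were 239 ± 39.0 in knockout vehicle and 341 ± 23.4 in control vehicle hearts, so that the knockout mean was 70.1% of the control mean. They were 272 ± 78.7 in knockout rapamycin and 373 ± 40.4 in control rapamycin hearts, or 72.9% (SD, n = 5 each).

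Averaged over both injections, Adamts13 fell by 0.51 on the log2 scale in knockout hearts (SE 0.11, limma adjusted p = 0.0391). In that contrast 1 of 34 members was called, against 0.443% of all genes tested (60 of 13548), and 0.111% of all genes were called lower. The knockout effect on Adamts13 was -0.52 under vehicle (SE 0.15, adjusted p = 0.0891) and -0.49 under rapamycin (SE 0.15, adjusted p = 1.00), and the difference between these was 0.03 (adjusted p = 0.945). Within the 4 sequencing pools the log2 difference was -0.53, -0.12, -0.73 and -0.46 under vehicle and -0.70, -0.68, -0.38 and -0.36 under rapamycin, so 8 of 8 were below 0. These differences reuse the libraries of the fit and are no separate evidence. Under vehicle their sign already followed from the lack of overlap between the groups. The adjusted p lay close to the threshold: the call held in 3 of 20 fits that each left out 1 library (those without knockout vehicle 2, control vehicle 5 or knockout rapamycin 4) and was lost in the other 17, with a log2 change of -0.58 to -0.47 and an adjusted p of 0.00378 to 0.0843. Without control vehicle 1 and 3 together the adjusted p was 0.149, and with a term for pool it was 0.0648. Vwf, its substrate, had a log2 change of 0.13 in the same contrast (adjusted p = 0.729). Summed endothelial markers were 17465 to 23577 in knockout vehicle, 11274 to 26446 in control vehicle, 18689 to 28458 in knockout rapamycin and 16116 to 25606 in control rapamycin hearts, and their part in the Adamts13 values was not tested. Red cell genes were lower in knockout hearts too: averaged over injections, 2 of 4 tested erythroid markers were called, the globins Hba-a2, which fell by 1.20 (adjusted p = 0.0431), and Beta-s, which fell by 1.31 (adjusted p = 0.0391). The 4 markers summed to 13533 to 46552 in knockout vehicle, 60591 to 155063 in control vehicle, 29692 to 104570 in knockout rapamycin and 38852 to 100690 in control rapamycin hearts. Without control vehicle 1 and 3 their median change under the same average was -0.94, against -1.15 with all libraries, and 0 of 4 were called. Their part in the Adamts13 values was not tested either. In such tissue RNA, fewer cells of a type and less RNA per cell cannot be told apart.

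**Figure D2:**
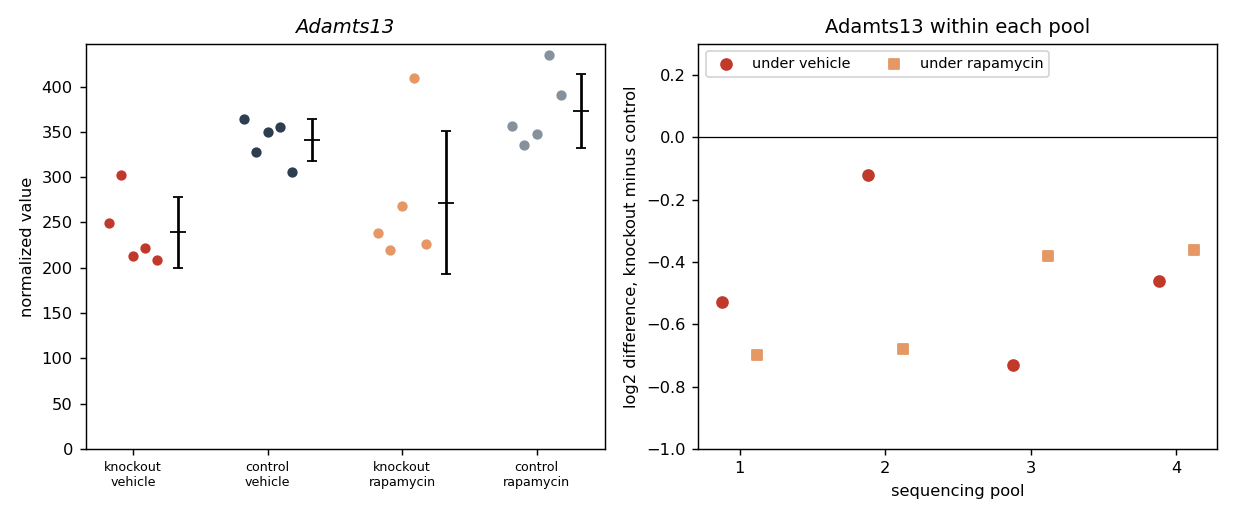
Left, normalized value of Adamts13 in each library with group mean and SD (n = 5 each); right, log2 difference of knockout minus control within each of 4 sequencing pools. All 5 knockout vehicle libraries lie below the control vehicle libraries, and 8 of 8 pool differences are below 0. Both panels show the same libraries, so the right one is no separate evidence.

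In knockout against control hearts under vehicle, 0 of 34 members were called by limma, against 0.244% of all genes tested (33 of 13548). At an unadjusted p under 0.05 there were 13 members, 11 higher and 2 lower, while the shares over all genes were 31.8% in all, 19.8% higher and 12.1% lower. The log2 change was above 0 for 27 of 34 members, against 56.5% of all genes, and its median was 0.47, against 0.07 for all genes. Groups did not overlap for 2 of 34 members, Adamts13 (lower) and Mmp16 (higher), against 2.32% of all genes. The count of 0 rested on single libraries: it was 9 when control vehicle 5 was left out (Adamts1, Adamts2, Adamts5, Adamts13, Adamts15, Mmp2, Mmp14, Mmp15 and Timp2), 3 for knockout vehicle 5 and 1 for control vehicle 4, while the genes called in all numbered 3089, 2565 and 343 in these fits.

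Among the inhibitors, Timp2, which blocks metalloproteinases and also links the Mmp2 precursor to Mmp14, was at 4446, 4513, 3354, 3863 and 5407 in knockout vehicle hearts, against 2768, 3296, 2947, 3636 and 3473 in control vehicle hearts. It was at 4061, 5162, 4285, 4095 and 5914 in knockout rapamycin hearts, against 4142, 3652, 3618, 3952 and 3819 in control rapamycin hearts. Knockout values were mostly the higher ones, and the groups overlapped through knockout vehicle 3 and control rapamycin 1. The log2 change of Timp2 was 0.41 under vehicle (SE 0.13, adjusted p = 0.0930), 0.28 under rapamycin (SE 0.13, adjusted p = 1.00) and 0.34 averaged over injections (SE 0.09, adjusted p = 0.0997). Within the 4 pools it was 0.49, 0.45, 0.53 and 0.15 under vehicle. The median change of the 4 inhibitors under vehicle was 0.31, and 0.18 without control vehicle 1 and 3.

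Timp1, an inhibitor induced in many inflamed and injured tissues, was at 133, 115, 27.8, 69.1 and 216 in knockout vehicle hearts, against 127, 25.5, 78.9, 71.5 and 58.1 in control vehicle hearts. Under rapamycin it was at 53.7, 116, 124, 156 and 120 in knockout hearts, against 107, 107, 75.2, 90.7 and 146 in control hearts. All 4 groups overlapped, and knockout vehicle held both the highest value and nearly the lowest. Timp3 was at 9550, 9718, 16404, 8480 and 8816 in knockout vehicle hearts, against 5609, 14092, 10214, 6869 and 9814 in control vehicle hearts. It was at 9764, 10861, 11994, 7180 and 9829 in knockout rapamycin hearts, against 15529, 7333, 6154, 10369 and 6666 in control rapamycin hearts. The spread within each group was wider than the differences between group means, which lay between 9210 and 10594.

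Timp4 was at 1338, 859, 1751, 1213 and 1689 in knockout vehicle hearts, against 2239, 2148, 3341, 644 and 2579 in control vehicle hearts. Under rapamycin it was at 1689, 990, 2816, 2172 and 1651 in knockout hearts, against 2398, 2257, 1226, 1301 and 925 in control hearts. Under vehicle 4 of 5 controls were above every knockout library, and control vehicle 4 was the lowest of all 20; under rapamycin the groups were mixed. The log2 change was -0.54 under vehicle (SE 0.37, adjusted p = 0.306), and -0.20 without control vehicle 1 and 3. In the GENCODE M21 annotation Timp1 lies within Syn1 and Timp3 within Syn3 on the opposite strand, and exons of Timp4 overlap Syn2 likewise. For Timp1 and Timp3 no shared exon is listed. Exons of the tested members Adamts7, Adamts8, Adamts9, Mmp12, Mmp19 and Mmp28 also overlap genes on the opposite strand. Whether the authors' counting used strand is not stated, so reads where exons overlap may not have been told apart.

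**Figure D3:**
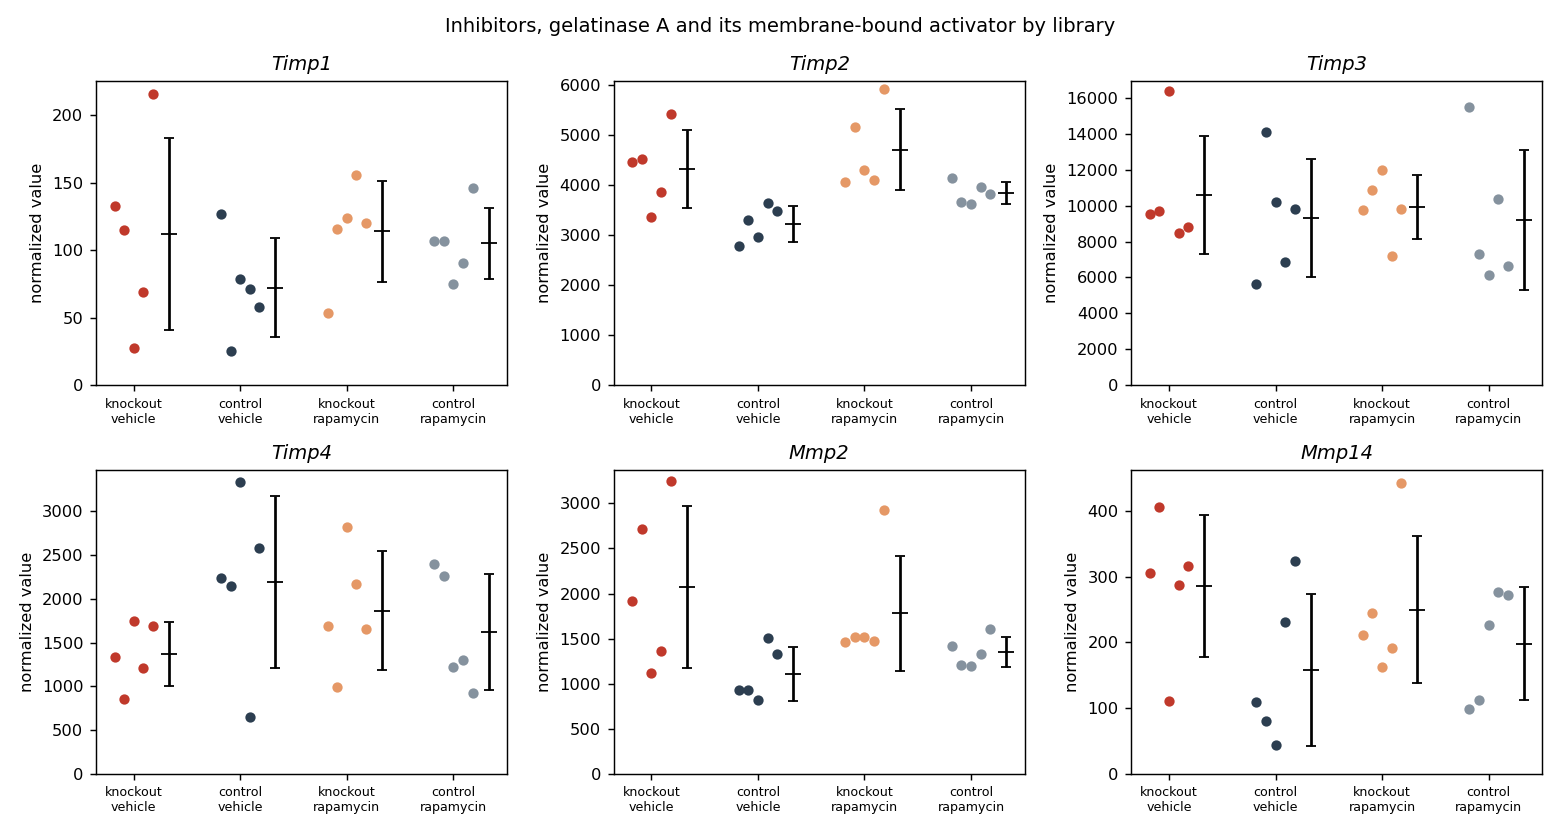
Normalized value of the 4 Timp genes, Mmp2 and Mmp14 in each of 20 libraries, with group mean and SD (n = 5 each, axes from 0). Knockout and control values overlap in every panel, and Timp2 comes closest to separating under vehicle.

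Of the gelatinases, which cut denatured collagen, Mmp2 was at 1922, 2713, 1119, 1366 and 3251 in knockout vehicle hearts, against 931, 928, 814, 1511 and 1327 in control vehicle hearts. In knockout rapamycin hearts it was at 1459, 1516, 1522, 1476 and 2925, against 1419, 1203, 1201, 1333 and 1607 in control rapamycin hearts. Knockout vehicle 2 and 5 and knockout rapamycin 5 held the highest values, and the groups overlapped. The log2 change of Mmp2 was 0.84 under vehicle (SE 0.26, adjusted p = 0.0918) and 0.59 averaged over injections (SE 0.18, adjusted p = 0.157). Within pools the vehicle difference was 0.70, 1.55, 1.23 and 0.04. Mmp9 (gelatinase B), prominent in neutrophils and macrophages, was far lower, at 38.1 ± 24.2 in knockout vehicle and 33.2 ± 6.07 in control vehicle hearts. Summed neutrophil markers were low too, at 17.9 to 377 and 64.1 to 422 in the same groups.

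Mmp14 was at 305, 407, 111, 288 and 317 in knockout vehicle hearts, against 109, 80.4, 44.1, 231 and 324 in control vehicle hearts. Under rapamycin it was at 211, 245, 162, 191 and 443 in knockout hearts, against 99.1, 112, 227, 277 and 272 in control hearts. Under vehicle only knockout vehicle 2 lay above every control library, and control vehicle 4 and 5 lay within the knockout range. Under rapamycin the groups were mixed. Within pools the vehicle difference was 0.94, 2.32, 2.07 and -0.17. Mmp16, another membrane-bound enzyme that can activate Mmp2, was low at 19.1 ± 4.54 in knockout vehicle and 9.78 ± 3.01 in control vehicle hearts. Its lowest knockout value of 13.9 was just above its highest control value of 13.7 (log2 change 0.91, SE 0.33, adjusted p = 0.104). Mmp15 was at 3521 ± 529 and 4342 ± 393 in the same groups (log2 change -0.31, SE 0.11, adjusted p = 0.106). The 4 tested membrane-bound members of 6 had a median change of 0.53 under vehicle, with 2 higher and 1 lower at an unadjusted p under 0.05, against 19.8% and 12.1% of all genes. The median was 0.37 without control vehicle 1 and 3, and then 0 of the 4 had an unadjusted p under 0.05.

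Of the proteoglycan-cleaving Adamts enzymes (Adamts1, 4, 5, 8, 9, 15 and 20), 6 of 7 were tested and all 6 had a log2 change above 0 under vehicle, with a median of 0.87 and 4 higher at an unadjusted p under 0.05, against 56.5% of all genes above 0, a median of 0.07 and 19.8% higher at that p. Without control vehicle 1 and 3 all 6 were still above 0, with a median of 0.30 and 0 at an unadjusted p under 0.05. Adamts5, the main aggrecan-cutting enzyme of mouse cartilage, was at 833 ± 175 in knockout vehicle and 509 ± 252 in control vehicle hearts (log2 change 0.83, SE 0.27, adjusted p = 0.0966). Adamts1 was at 1017 ± 174 and 659 ± 434 in the same groups, with control vehicle 4 the highest of these 10 at 1362. The values turned on the control libraries that stood apart: Adamts1 was at 393 and 239 in control vehicle 1 and 3 and Adamts5 at 297 and 244, against 575 to 1362 and 520 to 864 in the other 3 controls. Without these 2 libraries the change was 0.28 for Adamts1, 0.32 for Adamts5, 0.29 for Adamts15 and 0.06 for Adamts9.

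Of the procollagen-processing enzymes, Adamts2 was at 664 ± 185 in knockout vehicle and 356 ± 134 in control vehicle hearts (log2 change 0.93, SE 0.27, adjusted p = 0.0892), and its change without control vehicle 1 and 3 was 0.64. Within pools it was 0.73, 1.52, 1.44 and 0.15. Adamts3 and Adamts14, related procollagen N-proteinases, had changes of 0.30 and 0.44, and that of Adamts14 was -0.33 without the same libraries. The other 7 tested Adamts members of 9 had a median of 0.64, and of 0.32 without them. The 2 tested collagenases of 4, Mmp8 and Mmp13, were at most 26.1 and 42.6 in any library. The stromelysin pair of Mmp3 and Mmp11 had a median of 0.49 and the 3 tested of 6 other Mmp members a median of 0.06.

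Without control vehicle 1 and 3, the median change of the 34 members under vehicle was 0.24 in place of 0.47. Then 25 members were above 0, 4 had an unadjusted p under 0.05 (Adamts13, Mmp2, Adamts2 and Timp2) and 0 were called. Over all genes of that fit the median was 0.03, 56.4% were above 0, 6.75% had an unadjusted p under 0.05 and 0.0295% (4 of 13548) were called. Fibroblast markers were higher in knockout vehicle hearts. The summed value of 8, of which Gsn and Dcn were the largest parts, was 85044 to 139606 there and 59806 to 74183 in control vehicle hearts. It was 89584 to 137368 in knockout rapamycin and 67212 to 90441 in control rapamycin hearts. The median change of these markers under vehicle was 0.69, and 0.56 without control vehicle 1 and 3. Averaged over injections, all 8 markers had a log2 change above 0, with a median of 0.47, against 0.02 for all genes. At an unadjusted p under 0.05, 7 were higher, against 19.1% of all genes with either sign. Limma called 3 of the 8 higher, against 0.443% of all genes called with either sign. They were Pdgfra by 0.83 (adjusted p = 0.0391), Dcn by 0.44 (adjusted p = 0.0422) and Gsn by 0.53 (adjusted p = 0.0191). Of 31 alternatives, the call was lost in 14 for Pdgfra, 20 for Dcn and 1 for Gsn, and without control vehicle 1 and 3 0 of the 8 were called and 6 were higher at an unadjusted p under 0.05. Valve markers, 4 genes, summed to 1614 to 3426 in knockout vehicle and 1320 to 1870 in control vehicle hearts. The part of the fibroblast, valve, and atrial and conduction markers in the members' values was not tested.

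**Figure D4:**
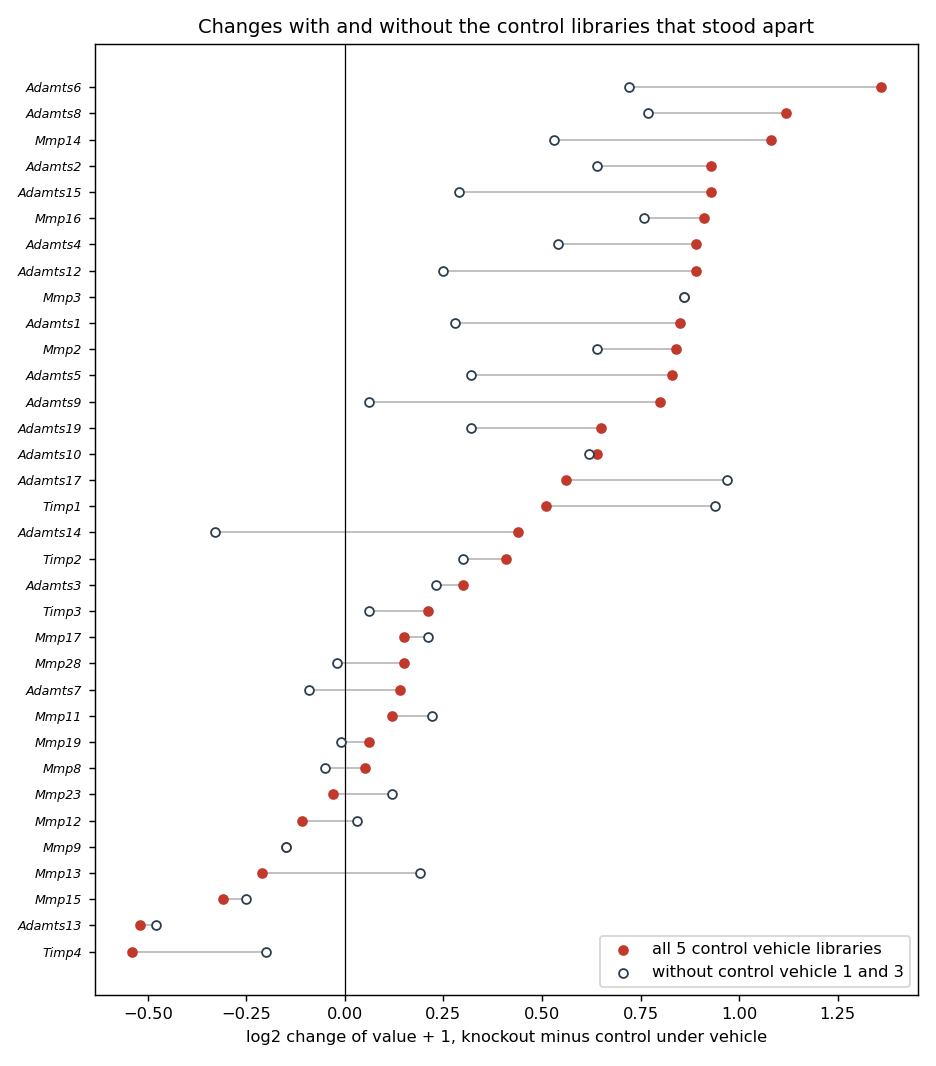
Log2 change of knockout minus control under vehicle for 34 members, with all 5 control vehicle libraries (filled) and without control vehicle 1 and 3 (open). The median moves to 0.24 without them, against 0.47 with them, while Adamts13 stays at -0.48, against -0.52.

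Under rapamycin, 0 of 34 members were called in knockout against control hearts, against 0.0221% of all genes, and 3 had an unadjusted p under 0.05, against 2.97% of all genes. Those were Adamts13, Timp2 and Mmp28 (epilysin, an enzyme of epithelia and healing skin). Mmp28 was at 139 ± 22.7 in knockout rapamycin and 101 ± 17.6 in control rapamycin hearts (log2 change 0.46, SE 0.20, adjusted p = 1.00). The change was above 0 for 21 of 34 members, against 44.3% of all genes, and the median was 0.14, against -0.02. The proteoglycan-cleaving enzymes had a median of -0.09 there. Adamts10, which binds fibrillin microfibrils, had a change of -0.53 (SE 0.30) and Adamts14 of -0.97 (SE 0.54), both with adjusted p = 1.00. No member's groups were free of overlap in this contrast, against 0.878% of all genes.

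**Figure D5:**
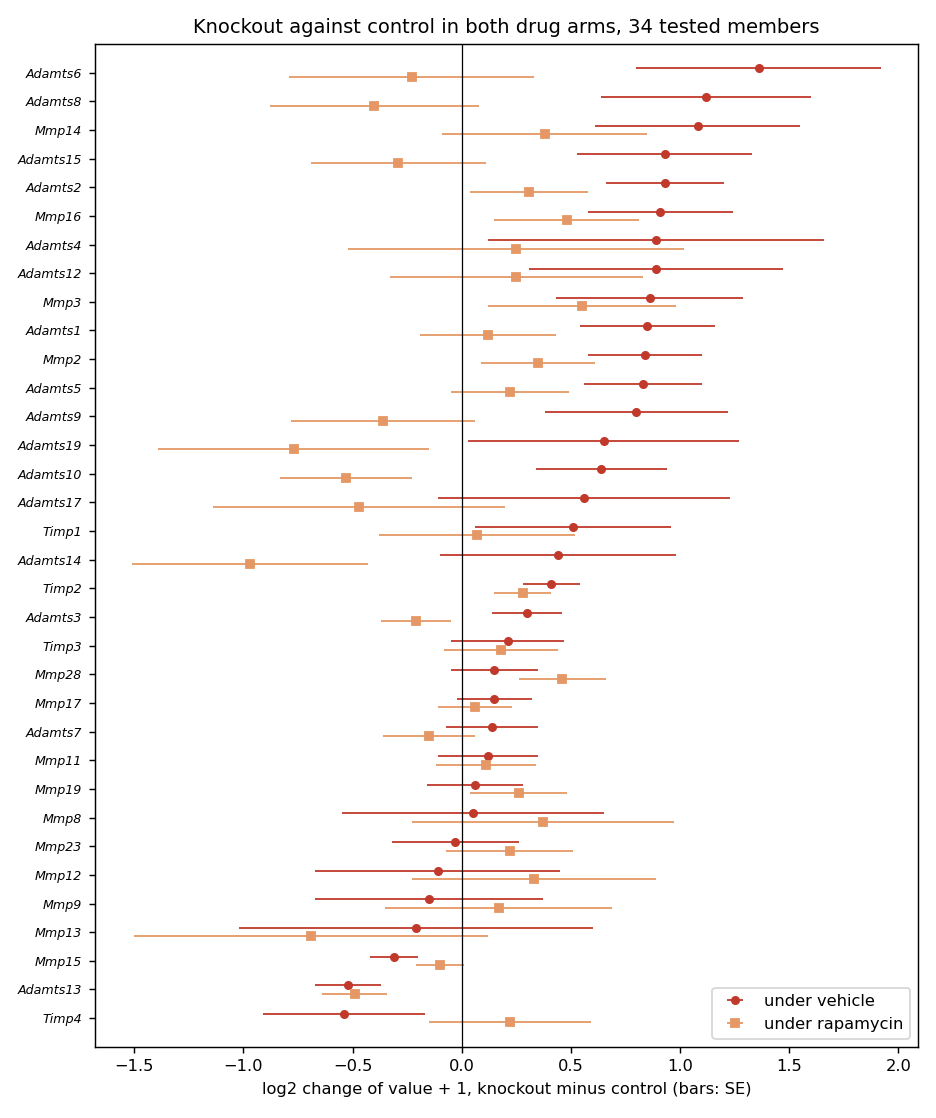
Log2 change of knockout minus control with its SE for the 34 tested members, under vehicle (circles) and under rapamycin (squares). Under vehicle 27 lie above 0 and under rapamycin 21, and Adamts13 lies near -0.5 in both.

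Rapamycin against vehicle called 0 of 34 members in knockout hearts (0.00738% of all genes) and 0 of 34 in control hearts (0.0% of all genes). In knockout hearts 1 member had an unadjusted p under 0.05, against 5.71% of all genes: Mmp12, the elastase of macrophages, at 74.4, 40.2, 49.8, 18.9 and 28.4 with rapamycin, against 22.5, 37.1, 3.98, 38.9 and 5.19 with vehicle. The ranges overlapped (log2 change 1.28, SE 0.56, adjusted p = 0.805). Summed macrophage markers were 7811 to 12346 in knockout rapamycin and 9078 to 17558 in knockout vehicle hearts. Of the 7 tested macrophage markers, 0 had a change above 0 in this contrast, against 46.6% of all genes, with a median of -0.31. At an unadjusted p under 0.05, 3 were lower, against 5.71% of all genes with either sign, and 0 were called. Their part in the Mmp12 values was not tested. In knockout hearts 14 of 34 members were above 0 (46.6% of all genes), with a median of -0.04, against -0.02.

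In control hearts the change with rapamycin was above 0 for 29 of 34 members, against 58.6% of all genes, with a median of 0.46, against 0.07. Unadjusted p was under 0.05 for 5 members, against 14.9% of all genes and all were higher (10.6% of all genes): Adamts8, Adamts10, Adamts1, Adamts15 and Adamts5. Adamts8, which has anti-angiogenic activity in culture, was at 33.6, 20.4, 34.1, 39.4 and 69.4 in control rapamycin hearts, against 5.78, 9.81, 11.6, 26.8 and 14.5 in control vehicle hearts. Only control vehicle 4 reached into the rapamycin range (log2 change 1.51, SE 0.48, adjusted p = 0.328). This contrast shares the control vehicle libraries with the knockout contrast under vehicle. Without control vehicle 1 and 3 the median of this rapamycin contrast was 0.16, and 2 members had an unadjusted p under 0.05. Adamts5 was then at 0.06 in place of 0.57 and Adamts1 at 0.13 in place of 0.70.

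The interaction, the knockout effect under rapamycin minus that under vehicle, called 0 of 34 members and 0.0% of all genes. At an unadjusted p under 0.05 there were 4 members, Adamts10, Adamts8, Adamts3 and Adamts15, all with negative values, against 8.30% of all genes with either sign and 6.07% with a negative one. The value for Adamts10 was -1.17 (SE 0.43, adjusted p = 0.523). The median was -0.46 over members and -0.09 over all genes, and -0.16 over members without control vehicle 1 and 3. In the fit without these libraries 1 member had an unadjusted p under 0.05. Averaged over genotype, rapamycin called 0 of 34 members against 0.125% of all genes, with 3 members at an unadjusted p under 0.05 (Mmp12, Adamts8 and Timp2), against 9.23% of all genes. For the knockout average the corresponding count was 11 of 34, against 19.1% of all genes. Without control vehicle 1 and 3 these counts were 1 for the rapamycin average and 6 for the knockout average.

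Genes that act with the members were listed in 5 groups, and limma called 0 of their genes under vehicle, with the counts at an unadjusted p under 0.05 given for each. The same figures over all genes under vehicle were 56.5% above 0, a median of 0.07, and 31.8% at an unadjusted p under 0.05, of which 19.8% higher and 12.1% lower. Without control vehicle 1 and 3 they were 56.4%, 0.03 and 6.75% at that p. The 15 matrix substrates, collagens and proteoglycans among them, all had a log2 change above 0 in knockout vehicle hearts, with a median of 0.89 and 8 higher at an unadjusted p under 0.05. Leaving out control vehicle 1 and 3, 14 were above 0, with a median of 0.56 and 4 higher at that p (Vcan, Dcn, Lum and Comp). The list shares Dcn, Lum, Col1a1 and Col1a2 with the fibroblast markers and Comp with the valve markers. With all libraries, those with the smallest p-values were Comp, a cartilage and tendon matrix protein cut by Adamts7 and Adamts12, at 2.52 (adjusted p = 0.0873), Dcn (decorin) at 0.47 (adjusted p = 0.0889) and Lum (lumican) at 0.71 (adjusted p = 0.0892). Comp was at 664 ± 492 in knockout vehicle and 113 ± 112 in control vehicle hearts. Averaged over injections 1 of the 15 was called, Dcn. Of 14 tested activators and regulators of 15, 12 were above 0 under vehicle (median 0.34), with 3 higher and 1 lower at an unadjusted p under 0.05. Bsg (basigin, an inducer of metalloproteinases) was at -0.83 (adjusted p = 0.0876) and Lrp1, the receptor that clears many proteases from the matrix, at 0.82 (adjusted p = 0.0900). Pcsk6, a convertase that removes propeptides, was at 0.49 (adjusted p = 0.102). With control vehicle 1 and 3 left out, 10 of the 14 were above 0 (median 0.13), with 0 higher and 1 lower (Furin) at an unadjusted p under 0.05.

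Of 17 tested other matrix proteases of 18, 14 were above 0 (median 0.41), with 7 higher and 1 lower at an unadjusted p under 0.05. Htra1, a secreted serine protease, was at -0.58 (adjusted p = 0.0754), its relative Htra3 at 0.48 (adjusted p = 0.0966) and Adam19, a membrane-bound sheddase, at 1.32 (adjusted p = 0.0862). When control vehicle 1 and 3 were left out, 14 were above 0 (median 0.36), with 3 higher and 1 lower at an unadjusted p under 0.05. The 6 Adamts-like genes, which resemble Adamts enzymes without the protease, had a median of 0.37 and 1 higher at an unadjusted p under 0.05, Adamtsl2 at 455 ± 114 in knockout vehicle and 227 ± 86.1 in control vehicle hearts (log2 change 1.03, adjusted p = 0.0862). Without the same libraries their median was -0.01, and Adamtsl2 was still higher at an unadjusted p under 0.05. The 10 helpers of procollagen folding and crosslinking had a median of 0.09, and 0.13 without the same libraries, with 1 higher and 1 lower at an unadjusted p under 0.05. Among them the collagen lysyl hydroxylase Plod1 was at -0.30 (adjusted p = 0.113), the crosslinking enzyme Lox at 0.83 (adjusted p = 0.118) and Pcolce2, an enhancer of procollagen cleavage, at 0.19 (adjusted p = 0.238).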

How the data were processed

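Poly(A) libraries of mouse heart ventricle were sequenced in 4 pools, each with at least 1 library of every group, per the labels. The authors' deposited values are a normalized signal per gene: RSEM estimates that the file shows scaled to a common upper quartile. Build mm9, Picard 1.64, SAMtools and RSEM are named in the submitters' processing notes; the aligner and the use of strand are not stated there. These values are not counts. They were analysed as log2(value + 1), so changes of low genes are understated. The filter on low values kept the 13548 genes at 10 or more in 5 or more of 20 libraries. One linear model with a mean per group was fitted to all 20 libraries with limma 3.58.1 in R 4.3.3 (intensity trend), with Benjamini-Hochberg adjustment over all tested genes at 0.05, and was tested on simulated data. Low values were whole multiples of 1 step per library in 87.6% to 89.6% of cases within 0.05 read; these steps gave the implied depths, which limit the precision of low values, and the share was too low to use the reads as counts. Transcript lengths came from GENCODE M21 by Entrez identifier, and promoters from RefSeq.

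The submitters state 5 biological replicates per group; p-values measure the spread between these libraries. Members, lists and roles were chosen with earlier results of these data known. Values in every library are given for the 4 Timp genes, Mmp2, Mmp14 and called members, with some others named after their values were seen. Fold changes are given for called members, the smallest p-values per contrast, and other genes named after their values were seen (such as Timp4, Adamts3, Adamts14 and Vwf). Alternatives covered the pseudocount, filter, scaling, pool, replicate block and libraries left out.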

Additional observations from a re-analysis of the deposited data

Results flagged for a closer look

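Within groups of 5 libraries, 10 of 136 combinations of member and group held a library whose gap to its nearest neighbour was over 0.71 of the group's whole range (Dixon's criterion); chance alone gives about 1 in 20. Knockout rapamycin 5 was high for 4 members: Mmp2 at 2925 (1459 to 1522 in the other 4 libraries of its group), Adamts9 at 516 (149 to 240), Adamts10 at 175 (53.3 to 87.5) and Adamts4 at 40.9 (3.44 to 11.0). Adamts13 was at 409 in knockout rapamycin 4, within the control rapamycin range and above the 220 to 268 of the rest of its group; without that library the averaged knockout change was called with an adjusted p of 0.00378. Adamts19 was at 30.1 in knockout rapamycin 2, against 2.75 to 10.3. In knockout vehicle hearts, Timp3 was at 16404 in library 3, against 8480 to 9718, and Adamts3 at 206 in library 4, against 159 to 165. Mmp11 was low in control rapamycin 1 at 59.8, against 146 to 171. Adamts12 was at 52.2 in control vehicle 5, against 2.32 to 15.6.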

How the results depend on the processing

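Among single genes named, the sign reversed for 3 uncalled results: the vehicle change of Adamts14 (0.44) was -0.33 without control vehicle 1 and 3 and -0.01 to 0.76 with 1 library left out, the averaged knockout change of Vwf (0.13) was -0.08 without control vehicle 1 and 3, and the interaction of Adamts13 (0.03) was -0.07 with array weights, -0.01 without control vehicle 1 and 3 and -0.12 to 0.12 with 1 library left out; the cause was not tested. The median of members for rapamycin against vehicle in knockout hearts (-0.04) was 0.01 with quantile normalization and -0.17 to 0.05 with 1 library left out. Under vehicle, the count of members called was 0; it was 1 with the replicate block (Adamts2) and 4 without knockout vehicle 5 and knockout rapamycin 5 (Adamts13, Adamts2, Adamts5 and Mmp2), an alternative chosen after seeing the data. Leaving out 1 library at a time gave 0 to 9 members, the highest being 9 when control vehicle 5 was left out, then 3 for knockout vehicle 5 and 1 for control vehicle 4. The count over all genes moved more widely: 33 genes in the fit of all libraries, 3089, 2565 and 343 in the same 3 fits, 8 and 9 when control vehicle 1 or 3 was left out and 4 when both were. Over the alternatives other than 1 library left out, it ran from 3 to 2270 genes. Those alternatives include the replicate block and the fit without knockout vehicle 5 and knockout rapamycin 5. Averaged over injections, the count of members called was 1; it was 2 with the replicate block (Adamts13 and Adamts2), and 0 with no filter, with a pool term, without control vehicle 1 and 3, and without knockout vehicle 5 and knockout rapamycin 5. Leaving out 1 library at a time gave 0 to 1. Over all genes that contrast called 60, 11 to 131 under the other alternatives and 21 to 150 with 1 library left out. Replicate numbers did not pair the libraries: same-numbered deviations correlated at -0.515 to 0.272. Quantile normalization moved the median change of all genes under vehicle to -0.04, against 0.07, and that of members to 0.32; of the genes called, 25 of 47 were then higher, against 27 of 33. A fit of only the groups compared cannot be made for the interaction or the averages. About 1 read is worth 1.12 to 2.32, so members near a value of 10 rest on a few reads per library.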
